A study of Mus musculus with 90 samples.

Results

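A set of 9 transcription factors that pattern the forebrain and the choroid plexus were followed through a spatial expression data set of the mouse brain. They were taken by name from the deposited table: Otx2, Lmx1a, Foxj1, Emx1, Emx2, Lhx2, Neurod2, Neurod6 and Meis2, which are 9 of 19962 genes measured. Each was read by 1 value in every area, so levels were compared between areas for 1 gene at a time and not between genes.

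The forebrain is laid out in the embryo by transcription factors that divide the dorsal telencephalon into cortex, hippocampus and a midline edge, the cortical hem and roof plate, from which the choroid plexus forms. The choroid plexus is a sheet of epithelium around a vascular core that secretes cerebrospinal fluid, and its epithelial cells carry cilia. Many of these factors stay switched on in the adult, where they mark the cell types that they helped to form: Otx2 in choroid plexus epithelium, Neurod2 and Neurod6 in excitatory neurons.

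The assay was the GeoMx platform with its whole-transcriptome mouse probe set, in which probes bound to RNA in fixed sections are released by light from a chosen area of interest (AOI) and counted by sequencing. The 10 mice comprised 6 exposed to chronic social stress (CSS) and 4 controls (ctrl). The labels used here give no strain, sex, age or length of stress, and none names a transgene. AOIs lay in 5 subregions: hippocampal fields CA1 and CA3, motor cortex (MC), somatosensory cortex (SS) and choroid plexus (CP), each labelled p16 high or p16 low, where p16 is the cell cycle inhibitor encoded by Cdkn2a and a marker of senescent cells. Of 100 possible AOIs 90 were present, 46 p16 high and 44 p16 low. CP was sampled in 16 AOIs from 9 mice (5 CSS, 4 control), the other subregions in 18 or 19 AOIs from 10 mice. An AOI holds several cell types, and in it fewer cells of a type and less RNA per cell cannot be told apart.

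An AOI held 184469 to 2098984 recovered counts (median 690250.5). Values are the authors' signal, in which the median gene stood at 22.067 in every AOI and the negative control probe, which has no target, at 10.8 to 18.1. Signal at the level of the negative probe is background. Control mouse 1175 stood apart: its median gene was 1.30 times the negative probe, against 1.38 to 1.70 times in the other mice, and its CP AOIs had the lowest sum of choroid plexus epithelium markers (58871, against a highest of 113840). Of 13 such markers, 12 were higher in CP than elsewhere, Ttr among them. The 8 CA3 pyramidal markers were all higher in CA3 than in CA1 and the 7 CA1 markers all lower, so CP, CA1 and CA3 carried the markers of their labels; no list specific to MC or SS was used. Cdkn2a did not separate the p16 labels: it differed by -0.04 (SE 0.11, log2, high minus low) in hippocampus and cortex and was higher in 5 of 10 mice (limma adjusted p = 0.92). In CP it differed by 0.30 (SE 0.22, limma adjusted p = 0.889) and was higher in 5 of 7 mice. Its signal was near background, at 1.59 times the negative probe in hippocampus and cortex and 1.49 times in CP. At that level the transcript is a weak check of the labels. How an AOI got its p16 label was not stated. All differences below are of log2(signal + 1) between means per mouse, tested over all genes with limma with the mouse as a block where both sides come from the same mouse, and a gene is called at a Benjamini-Hochberg adjusted p under 0.05.

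Promoter windows, the 250 bases before a transcription start, were available for 8 of the 9 factors in RefSeq on GRCm38.p6, the mm10 build. The 3 shown belong to the member with the largest CP difference and to the pair of members with the largest differences between hippocampus and cortex. The Otx2 window lies at chr14:48667645-48667894, that of Neurod2 at chr11:98329646-98329895 and that of Neurod6 at chr6:55681264-55681513, all on the minus strand and directly upstream of the gene. Capitals mark matches to 5 short motifs searched on both strands.
Otx2: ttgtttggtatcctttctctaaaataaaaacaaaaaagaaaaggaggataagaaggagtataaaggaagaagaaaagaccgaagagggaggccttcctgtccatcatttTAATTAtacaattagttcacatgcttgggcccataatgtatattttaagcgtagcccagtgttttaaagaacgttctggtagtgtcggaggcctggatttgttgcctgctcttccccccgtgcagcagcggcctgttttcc
Neurod2: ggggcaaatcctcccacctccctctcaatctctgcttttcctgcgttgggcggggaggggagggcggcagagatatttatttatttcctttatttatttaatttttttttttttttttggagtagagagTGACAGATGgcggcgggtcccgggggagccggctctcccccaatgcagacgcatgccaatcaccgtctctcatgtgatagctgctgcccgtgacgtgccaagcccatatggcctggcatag
Neurod6: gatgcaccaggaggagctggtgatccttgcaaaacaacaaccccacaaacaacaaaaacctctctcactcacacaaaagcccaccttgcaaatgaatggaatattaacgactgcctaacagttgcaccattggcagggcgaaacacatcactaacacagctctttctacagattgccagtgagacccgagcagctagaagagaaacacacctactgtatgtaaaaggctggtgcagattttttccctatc
The motifs were the homeodomain core TAATTA, the Otx site TAATCC, the NeuroD-type E-box CAGATG, the MEIS site TGACAG and the forkhead core GTAAACA. The Otx2 window held 1 TAATTA, which 4.84% of 32851 windows of this length in the RefSeq table hold. A later start of Otx2, with its window at chr14:48665110-48665359 inside the gene, had 3 TAATTA matches and 1 match to the Otx site, which 6.25% of windows hold. Of the 4 Otx2 windows, chr14:48667509-48667758 held 0 matches and chr14:48662735-48662984 held 1, to the NeuroD-type E-box. The shares are for 1 window with any match, so they do not measure a window picked out of 4. In the Neurod2 window TGACAG and CAGATG overlapped in 1 run of letters, motifs that 15.9% and 14.4% of windows hold. The Neurod6 window held none of the 5, and no window of a member held the forkhead core, present in 3.17% of all windows. These matches describe letters only.

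Otx2, Lmx1a and Foxj1 were high in CP and close to background everywhere else. Otx2, the homeodomain factor needed to form the choroid plexus, had a signal of 293 ± 56.0 in CP (mean ± SD of 9 mice; lowest 177, median 298, highest 377), which is 22.1 times the negative probe. In the other 4 subregions its means ran from 12.8 in CA1 to 16.4 in MC, 0.959 times the negative probe, and the lowest CP mouse stood 7.08 times above the highest mouse of any other subregion. Foxj1, the forkhead regulator of motile cilia, had a CP signal of 199 ± 39.7 (lowest 125, median 218, highest 234), against means of 18.3 to 19.4 elsewhere. Lmx1a, a LIM homeodomain factor of the roof plate and cortical hem, was the smallest of these differences: its CP signal was 64.0 ± 11.3 (lowest 40.1, median 65.1, highest 80.9), against 15.1 to 18.9 elsewhere. CP mice and the mice of other subregions did not overlap for any of these 3 factors. For Lmx1a the lowest CP mouse stood only 1.35 times above the highest mouse elsewhere. The share of all genes without such overlap is not given here, so this does not set the 3 apart from other genes.

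Against the mean of the other 4 subregions in the same mice, Otx2 was higher by 4.32 (SE 0.11, adjusted p = 7.08e-17), Foxj1 by 3.41 (SE 0.12, adjusted p = 9.9e-15) and Lmx1a by 1.91 (SE 0.13, adjusted p = 1.37e-10), each in 9 of 9 mice. All 9 factors were called in this comparison, where 40.2% of all genes were called: 3 were higher, against 20.6% of all genes, and 6 lower, against 19.6%. Since the lower side of these 3 differences is background, their size is set in part by the floor of the assay: with the negative probe subtracted, Otx2 differed by 7.43, Foxj1 by 5.70 and Lmx1a by 4.15. Between CA1, CA3, MC and SS, neighbours in the order of levels of these 3 factors did not differ, with limma adjusted p-values from 0.683 to 0.989.

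**Figure D1:**
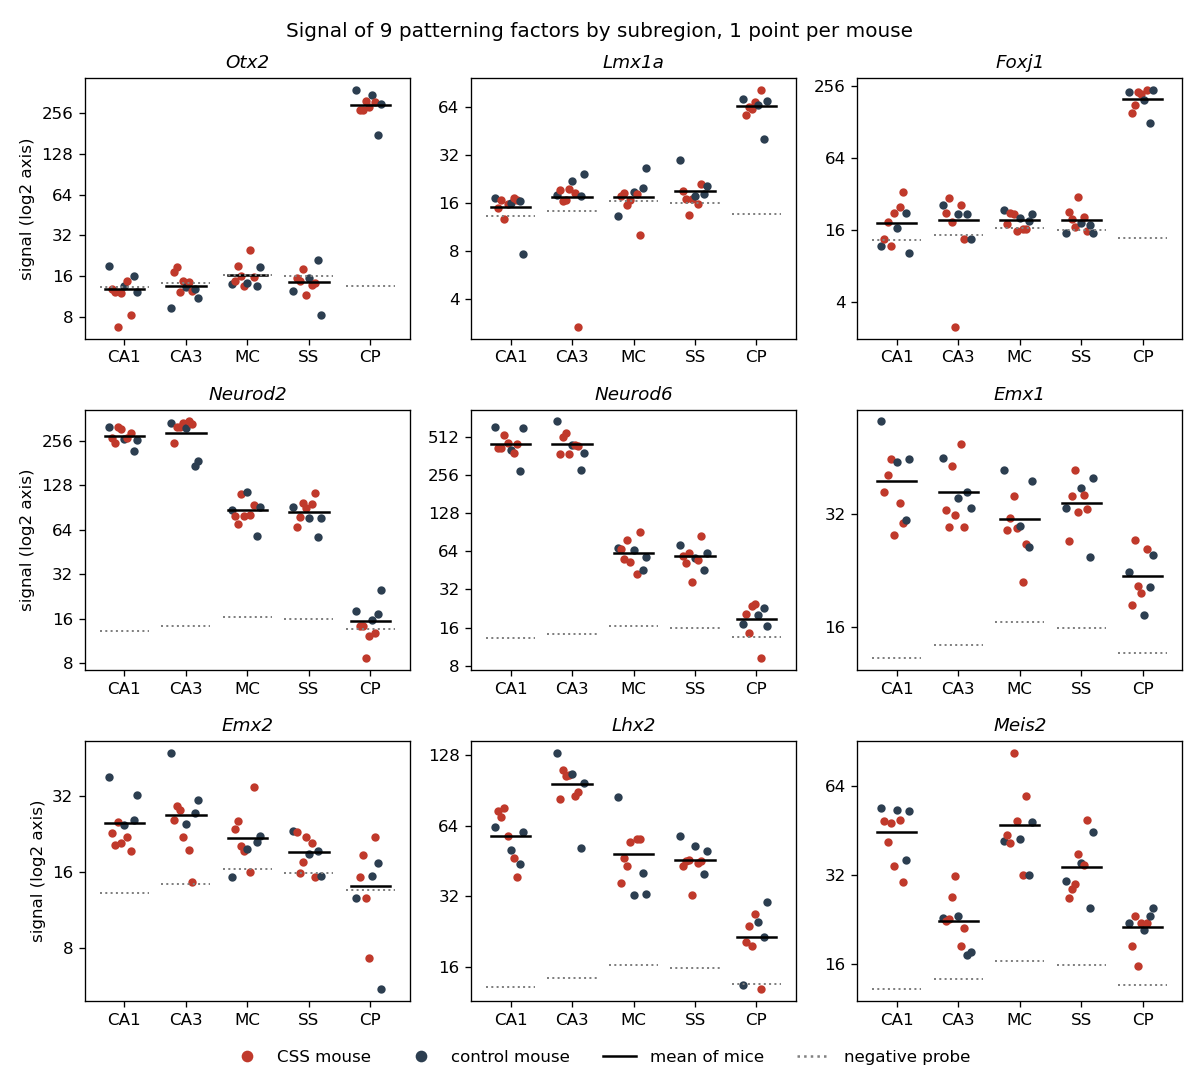
Signal (log2 axis) of each factor in the 5 subregions, with 1 point per mouse (red CSS, dark control), the mean of mice as a bar and the mean negative probe as a dotted line. Otx2, Lmx1a and Foxj1 stand well above the dotted line in CP alone, Neurod2 and Neurod6 are highest in CA1 and CA3, and Lhx2 and Meis2 differ between CA1 and CA3.

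The 3 CP factors varied together from mouse to mouse. Over the 9 CP means, Pearson's r was 0.83 between Otx2 and Lmx1a, 0.81 between Otx2 and Foxj1 and 0.88 between Lmx1a and Foxj1, a description of points that share AOIs, depth and mouse 1175. That mouse was the lowest of 9 for all 3 factors, at 177 for Otx2, 40.1 for Lmx1a and 125 for Foxj1, and also the lowest for the epithelium markers; the part of the markers in these levels was not tested. Without it the differences of CP from the other subregions were 4.43 for Otx2 and 3.51 for Foxj1. The 5 CSS mice of CP ranged from 269 to 313 for Otx2, while the 4 controls took both ends, from 177 to 377.

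Genes of the roof plate and cortical hem, other than the members, were mixed in CP. Of 25 measured, 11 were higher and 4 lower, with a median difference of 0.20 against -0.03 over all genes. The highest were the homeobox gene Msx1, by 4.60 (SE 0.12, adjusted p = 9.27e-17; back-transformed mean signal 425 against 16.6), Bmp6 by 3.02 and Bmp7 by 2.29, ligands of the bone morphogenetic protein family, and the zinc finger factor Zic1 by 2.70. Of 26 regulators and parts of motile cilia, 16 were higher in CP and 0 lower, with a median of 0.88. Gmnc, which starts the multiciliated cell programme upstream of Foxj1, was higher by 1.54 (SE 0.09, adjusted p = 1.65e-11), and the axonemal genes Tekt1, Rsph4a and Spag6l were higher by 1.79, 1.70 and 1.66. Ependymal markers moved the same way: 8 of 10 were higher in CP and their summed signal was 393 to 568 in CP, against 130 to 211 in the mice of the other subregions. Ependymal cells line the ventricle beside the choroid plexus, and their part in the cilium genes and in Foxj1 was not tested.

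Neurod2 and Neurod6, basic helix-loop-helix factors of differentiating and mature excitatory neurons, followed the excitatory subregions in 3 steps. Neurod2 had a signal of 290 ± 64.1 in CA3 (lowest 173, median 316, highest 344) and 274 ± 31.9 in CA1 (lowest 217, median 267, highest 318). It stood at 86.4 ± 17.5 in MC and 84.0 ± 16.2 in SS, and at 15.3 ± 4.51 in CP (lowest 8.67, median 14.4, highest 24.8), where 7 of 16 AOIs were above the negative probe. Neurod6 had 453 ± 102 in CA1, 448 ± 112 in CA3, 62.6 ± 15.1 in MC, 58.5 ± 13.3 in SS and 18.8 ± 4.95 in CP. For both factors the hippocampal mice did not overlap the cortical mice, and the cortical mice did not overlap CP. How many of all genes share that pattern is not given here, so it does not set the pair apart.

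Neurod6 was 2.87 higher in hippocampus than in cortex (SE 0.07, adjusted p = 2.85e-27) and Neurod2 1.72 higher (SE 0.06, adjusted p = 7.51e-23), both in 10 of 10 mice. CP minus the other 4 subregions was -3.30 for Neurod2 (SE 0.15, adjusted p = 2.94e-13) and -3.11 for Neurod6 (SE 0.15, adjusted p = 8.36e-13), below 0 in 9 of 9 mice. In CP the 2 factors stood at 1.11 and 1.36 times the negative probe, so the size of these differences is set in part by the floor. Over 18 alternatives they ran from -5.92 to -2.71 for Neurod2 and from -4.70 to -2.65 for Neurod6. CA1 and CA3 were not separated by either factor: Neurod2 differed by 0.04 (CA3 minus CA1, SE 0.08, adjusted p = 0.79) and Neurod6 by -0.03 (SE 0.08, adjusted p = 0.848). With the signal scaled to the 75th percentile or by quantiles, Neurod2 was called higher in CA3, by 0.20 and 0.15, which is 0.05 and 0.15 relative to the median of all genes in each setting. Across the 40 means of the 4 hippocampal and cortical subregions the pair had r = 0.97, over points that share AOIs and span the step between hippocampus and cortex. Over the 9 CP means r was -0.11, but both factors were near background there, so the 2 values are not alike. Summed signal of 7 excitatory neuron markers had a mean of 7092 in CA1, 5571 in CA3, 2969 in MC, 2871 in SS and 165 in CP. Singly, 4 of the 7 were called higher and 2 lower in hippocampus than in cortex. Between CA3 and CA1, 2 were called higher and 2 lower in CA3, and in CP 0 were higher and 6 lower. The part of neuron number or RNA content in Neurod2 and Neurod6 was not tested.

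**Figure D2:**
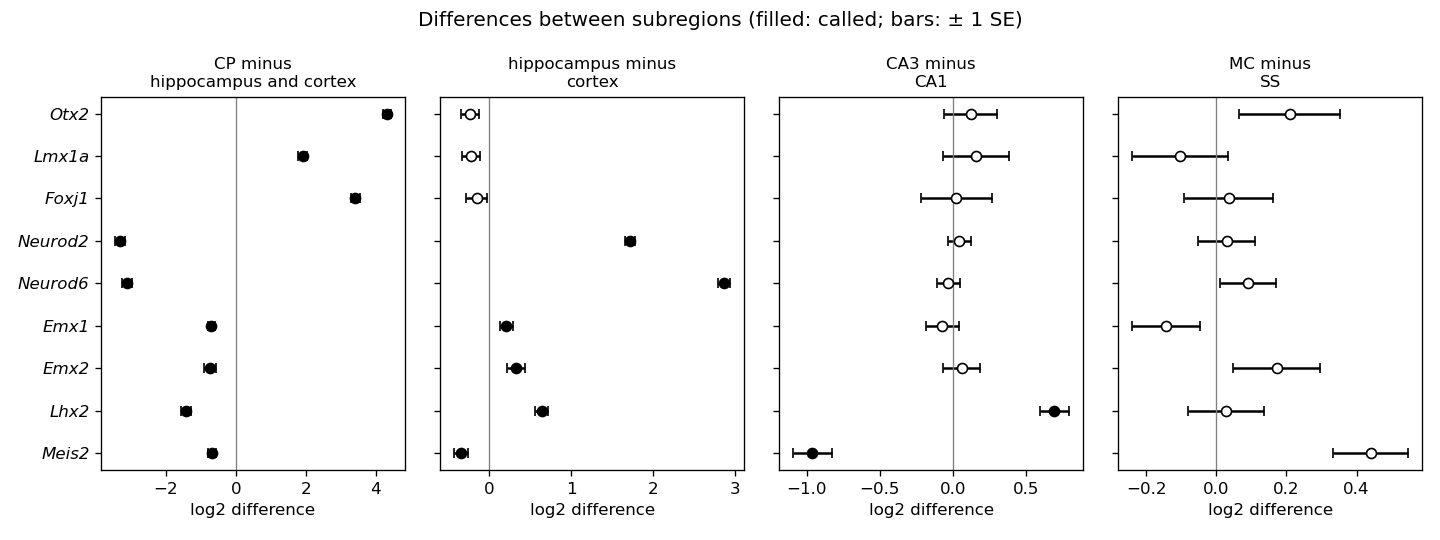
Log2 difference (± 1 SE) of each factor in 4 comparisons of subregions within mice, filled where the adjusted p was under 0.05; each panel has its own axis. All 9 are filled for CP, 6 for hippocampus minus cortex, 2 (Lhx2 and Meis2) for CA3 minus CA1 and 0 for MC minus SS.

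The hippocampus against the cortex called 6 of the 9 factors, where 51.1% of all genes were called: 5 were higher in hippocampus, against 34.4% of all genes, and 1 lower, against 16.7%. Besides Neurod2 and Neurod6, Lhx2 was higher in hippocampus by 0.64 (SE 0.08, adjusted p = 1.45e-08, 10 of 10 mice) and Meis2 was lower (difference -0.34, SE 0.09, adjusted p = 0.00118, lower in 10 of 10). For Meis2 the hippocampal fields did not move alike: CA3 was lower than both cortical areas, whereas CA1 did not differ from MC (-0.08, SE 0.12, adjusted p = 0.591) and was higher than SS (0.36, SE 0.12, adjusted p = 0.0146, 8 of 10 mice), a sign that turned with quantile normalization (-0.02) and with 75th percentile scaling (-0.08, which is 0.35 above the median of all genes in that setting). Emx2 differed by 0.32 (SE 0.11, adjusted p = 0.0127, higher in 9 of 10) and Emx1 by 0.21 (SE 0.08, adjusted p = 0.0271, higher in 8 of 10). The Emx1 call was lost without mouse 1151, 1152, 1168, 1169 or 1175 (highest adjusted p = 0.0752), without the block (adjusted p = 0.0842) and with edgeR (adjusted p = 0.309), and under quantile normalization its sign turned, to -0.07. The Emx2 call was lost without mouse 1151 (adjusted p = 0.0641). The comparison depended on scaling: 75th percentile scaling moved the median of all genes from -0.03 to -0.37, and the calls went from 6864 higher and 3330 lower to 3749 higher and 12451 lower. Emx1 and Emx2 went to -0.14 and -0.02 with that shift. Relative to the shifted median, Neurod6 stood at 2.89, Neurod2 at 1.73, Lhx2 at 0.66, Emx2 at 0.35, Emx1 at 0.23 and Meis2 at -0.32. Relative to the median of the main setting they stood at 2.90, 1.75, 0.67, 0.36, 0.24 and -0.31. That scaling divides all values of an AOI by 1 factor, so these values could hardly differ and do not test the calls. Under quantile normalization Lhx2 differed by 0.08 and was not called (adjusted p = 0.506). CP against the other subregions kept all 9 directions under each scaling tried.

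Emx1 and Emx2, homeobox genes of the embryonic dorsal telencephalon, were lower in CP than in the other subregions. Emx1 had a signal of 39.1 ± 8.76 in CA1, 36.6 ± 6.81 in CA3, 34.1 ± 5.38 in SS, 31.0 ± 6.33 in MC and 21.8 ± 3.48 in CP, and neighbours in that order did not differ except MC and CP (0.57, SE 0.11, adjusted p = 0.000239). Emx2 had 27.0 ± 8.66 in CA3, 25.1 ± 5.80 in CA1, 21.8 ± 5.46 in MC, 19.2 ± 3.08 in SS and 14.1 ± 5.26 in CP, with no pair of neighbours past the threshold. SS and CP came nearest for Emx2, at 0.46 (SE 0.18, adjusted p = 0.0504). CP minus the other 4 subregions was -0.70 for Emx1 (SE 0.10, adjusted p = 1.04e-05, lower in 9 of 9 mice) and -0.75 for Emx2 (SE 0.17, adjusted p = 0.00116, lower in 8 of 9). The ranges over mice overlapped for both genes, and Emx2 in CP was close to the negative probe, above it in 11 of 16 AOIs.

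Lhx2, a LIM homeodomain selector of cortical identity that holds back the hem fate in the embryo, was highest in CA3. Its signal was 96.2 ± 21.1 in CA3 (lowest 51.4, median 100.7, highest 131) and 57.9 ± 12.9 in CA1 (lowest 38.6, median 58.9, highest 75.8). It was 48.3 ± 15.7 in MC, 45.6 ± 6.88 in SS and 21.5 ± 5.79 in CP. CA3 exceeded CA1 by 0.69 (SE 0.10, adjusted p = 3.06e-06) in 10 of 10 mice, from 0.10 in mouse 1152 to 1.15 in mouse 1170. The CA3 AOIs of mouse 1175 were low for Lhx2 at 51.4, against 82.9 to 131 in the other mice, and without those AOIs the difference was 0.75 (adjusted p = 1.81e-06). CA1 did not differ from MC (0.28, SE 0.13, adjusted p = 0.0733). SS exceeded CP by 1.09 (SE 0.15, adjusted p = 1.67e-06).

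Meis2, a homeodomain factor of the TALE class that binds DNA with Pbx proteins, ran opposite to Lhx2 between the hippocampal fields. Its signal was 44.8 ± 8.61 in CA1 (lowest 30.3, median 48.4, highest 54.0) and 22.5 ± 4.46 in CA3 (lowest 17.2, median 22.6, highest 31.9). CA3 was lower than CA1 (difference -0.96, SE 0.13, adjusted p = 9.16e-07) in 9 of 10 mice. The exception was mouse 1163, at 0.06, and without each mouse in turn the difference ran from -1.08 to -0.90. In the main scaling these 2 factors were the members called between CA3 and CA1, where 17.7% of all genes were called. Meis2 stood at 47.3 ± 14.9 in MC, 34.2 ± 7.81 in SS and 21.4 ± 2.76 in CP. CA3 and CP, next to each other in that order, did not separate (difference 0.05, SE 0.15, adjusted p = 0.847), and 5 of 9 mice were higher in CA3. MC exceeded SS by 0.44 (SE 0.11) in 9 of 10 mice, which did not pass (adjusted p = 0.401). None of the 9 factors was called between MC and SS with limma, where 0% of genes were, and 1 had an unadjusted p under 0.05; edgeR on recovered counts called Meis2, higher by 0.51 (adjusted p = 0.00629).

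Some cell type markers differed between CA3 and CA1 beside these factors. CA3 AOIs held more signal of Ttr, a choroid plexus transcript (back-transformed mean 149 against 15.8 in CA1), and the summed epithelium markers ran from 226 to 716 in CA3 and from 243 to 290 in CA1. Singly, 2 of the 13 epithelium markers were called higher in CA3 and 1 lower. The mean of that sum was 460 in CA3 and 95644 in CP. Otx2, at 0.957 times the negative probe in CA3, could not show so small a share, and choroid plexus RNA in CA3 was not tested. Glial markers were higher in CA3 as well, 5 of 8 of astrocytes and 5 of 8 of oligodendrocytes; the part of these cells in Lhx2 and Meis2 was not tested.

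The other subregion pairs were compared singly. CP against CA1 called 9 of the 9 factors (41.9% of all genes), CP against CA3 8 (37.2%), CP against MC 9 (39.4%) and CP against SS 8 (38.2%), the exceptions being Meis2 and Emx2. CA1 against MC called 4 (47.6%), CA1 against SS 5 (43.1%), CA3 against MC 4 (31.7%) and CA3 against SS 5 (30.6%). Lhx2 was 0.97 higher in CA3 than in MC, in 10 of 10 mice, while Meis2 differed by -1.04 from MC and -0.60 from SS, also in 10 of 10 mice. Otx2 was called between CA1 and MC (-0.40, SE 0.16, adjusted p = 0.0476) with both at the level of the negative probe, and the sign turned to 0.05 once that probe was subtracted.

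Counts of related factors are to be read against the 20.6% of all genes called higher and 19.6% called lower in CP. Of 21 other factors of telencephalic area and pallium, 8 were higher and 3 lower in CP. Nr2f2, Six3 and Lef1 were higher in CP by 2.78, 1.92 and 1.55. Of 20 neuronal helix-loop-helix and cortical neuron factors, 4 were higher in CP and 9 lower, among them Zbtb18 (-2.30) and Tbr1 (-1.92). Of 18 LIM homeodomain genes and their partners, 2 were higher and 6 lower, led by Lmo4 (-2.31) and Lmo3 (-2.19). Of 10 TALE genes, 2 were higher and 5 lower, with Tgif2 at 0.78. The median differences of these lists in CP were 0.05, -0.18, -0.16 and -0.31, against -0.03 over all genes.

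Between CA3 and CA1 the neuronal list had 3 higher and 3 lower of 20, where 17.7% of all genes were called in either direction. Bcl11b differed by -1.86, and Tbr1 was higher in CA3 by 0.93. Among LIM genes 2 were higher and 5 lower of 18: Lhx9 was higher in CA3 by 1.07 and Lmo4 by 0.74, and Lmo3 and Ldb2 differed by -1.26 and -1.19. Of the 10 TALE genes, 0 were higher in CA3 and 3 lower, among them Pknox2 at -0.46 and Pbx2 at -0.39.

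The genes most like each factor were sought by Pearson's r over the 49 means of mouse and subregion, among 7106 genes whose mean signal over all AOIs was above 2 times the mean of the negative probe. The means share AOIs and subregion, so r is a description. Otx2 was most like Col9a3 (r = 0.98), Enpp2 and Lbp, of which Enpp2, autotaxin, is a choroid plexus epithelium marker. Foxj1 was most like Car12 (r = 0.96), Ecrg4 and Krt8, and Lmx1a like Eci1 (r = 0.90), Slc13a4 and Drc7. Neurod2 was most like Nell2 (r = 0.99), Astn1 and Camk2b, and Neurod6 like Slit1 (r = 0.99), Hpca and Ptk2b, where Camk2b is a kinase subunit and Hpca a calcium sensor of neurons. Lhx2 was most like Gpr158 (r = 0.92), Erc2 and Brinp2, Emx1 like Prkcz (r = 0.88) and Emx2 like Mypop (r = 0.78). Tmsb10 was among the 3 genes most like Meis2.

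In the p16 high AOIs of hippocampus and cortex Meis2 was higher. Per mouse over paired AOIs its signal was 42.7 ± 9.82 in p16 high (lowest 25.7, median 43.6, highest 56.6) and 33.1 ± 6.87 in p16 low (lowest 26.7, median 31.6, highest 48.4), so the 2 labels overlapped between mice. Within mice the difference was 0.39 (SE 0.09, 95% interval 0.22 to 0.57, adjusted p = 0.0369), positive in 9 of 10. It ran from -0.05 in mouse 1169 to 0.82 in mouse 1170, and was 0.42 ± 0.37 in 6 CSS mice and 0.34 ± 0.20 in 4 controls. Of the 9 factors 1, Meis2, was called, where 0.386% of all genes were called. The call did not survive without mouse 1151, 1157, 1162, 1163, 1170 or 1175 (differences 0.34 to 0.43, adjusted p from 0.053 to 0.136), nor with quantile normalization (0.33, adjusted p = 0.296) or 75th percentile scaling (0.31, adjusted p = 0.25), although the sign was positive in all 19 alternatives.

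For 4 more factors of neurons and cortex the difference was positive but did not pass. It was 0.19 for Neurod6 (95% interval 0.06 to 0.31, adjusted p = 0.14, higher in 7 of 10 mice), 0.16 for Neurod2 (0.05 to 0.26, adjusted p = 0.133, 9 of 10), 0.18 for Emx1 (adjusted p = 0.245, 9 of 10) and 0.14 for Lhx2 (adjusted p = 0.345, 9 of 10). Emx2 differed by -0.05 (adjusted p = 0.867). Excitatory neuron markers, summed over 7 genes, differed by 0.17 in the same direction in 10 of 10 mice (summed signal 3014 to 6178 in p16 high, 2493 to 5211 in p16 low). Singly, 5 of the 7 were above 0, and 1 was called higher and 0 lower. Summed CA1 pyramidal markers differed by 0.12, higher in 9 of 10 mice, and summed CA3 markers by 0.01, higher in 5 of 10. The median gene stood 0.05 higher over the negative probe in 9 of 10 mice. The part of any of these in Meis2 was not tested. Total counts differed by -0.16, lower in p16 high in 7 of 10 mice.

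**Figure D3:**
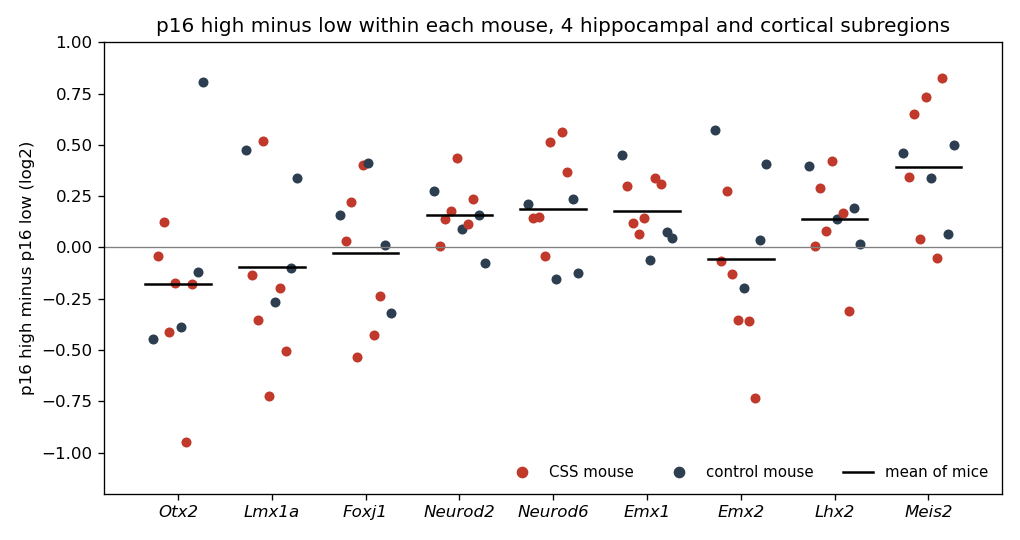
p16 high minus p16 low (log2) in hippocampus and cortex for each factor, 1 point per mouse (red CSS, dark control), with the mean of mice as a bar. For Meis2 9 of 10 mice lie above 0 around a mean of 0.39, while Lmx1a, Foxj1 and Emx2 have mice on both sides of 0. Otx2 lies mostly below 0, with 1 of 6 CSS and 1 of 4 control mice above it.

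By subregion no factor passed in the 45 comparisons of p16 label, of which 9 had an unadjusted p under 0.05 in limma and 0 were called by edgeR. All genes called made up 0.0902% in CA1 and 0% in CA3, MC, SS and CP. Without mouse 1152 the count of all genes called in CA3 went from 0 to 538, none of them a member, and edgeR called 47 there; without mouse 1182 the count in CA1 went from 18 to 107. Meis2 differed by 0.58 in CA1 (SE 0.17, adjusted p = 0.123; 54.0 ± 11.4 in 9 p16 high AOIs, 36.8 ± 12.4 in 9 low), 0.50 in CA3, 0.23 in MC, 0.26 in SS and 0.36 in CP. Lhx2 differed by 0.28 in CA1 and 0.38 in CA3 but by -0.27 in MC (adjusted p = 0.913). In CP the 3 epithelial factors were near 0: Foxj1 at -0.01 (95% interval -0.16 to 0.14), Otx2 at -0.09 (-0.25 to 0.06) and Lmx1a at -0.12 (-0.37 to 0.14). CP minus hippocampus and cortex in the p16 difference was not called for any factor (0% of genes), the largest being Neurod2 at -0.55 and Lhx2 at -0.46 (adjusted p = 0.478 and 0.476).

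None of the factors passed the adjusted test between CSS and control mice. In hippocampus and cortex 0 of 9 were called and 0% of all genes, 0 of 9 had an unadjusted p under 0.05, and edgeR called 0. The estimates ran from -0.23 for Lmx1a (95% interval -0.49 to 0.03) to 0.16 for Neurod2 (-0.19 to 0.51). In CP, Otx2 differed by -0.01 (-0.44 to 0.43), Foxj1 by 0.06 (-0.35 to 0.48) and Lmx1a by 0.12 (-0.27 to 0.51), so changes of about that width in either direction remain compatible with these 9 mice. Over 45 comparisons by subregion 0 were called, again with 0% of all genes, and 2 had an unadjusted p under 0.05 in limma, Neurod2 in CP and Emx2 in CA3; edgeR called 0.

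Of the 45 comparisons by subregion, 1 had CSS and control mice that did not overlap, Neurod2 in CP. Genes whose groups did not overlap made up 0.531% of all genes in CA1, 0.561% in CA3, 0.541% in MC and 0.481% in SS, and 0.401% in hippocampus and cortex together. Its CP signal was 14.4, 14.2, 8.67, 12.3 and 12.9 in the 5 CSS mice and 18.0, 15.6, 17.1 and 24.8 in the 4 controls. The difference, CSS minus control, was -0.59 (SE 0.25, 95% interval -1.11 to -0.08, adjusted p = 0.999). In CP that share was 0.997% of all genes. Set against the negative probe these signals were 0.648 to 1.07 times in CSS and 1.06 to 2.18 times in control mice, which is background or little above it. Emx2 in CA3 was 23.2 ± 5.55 in 6 CSS mice and 32.6 ± 10.2 in 4 controls, with groups that overlapped (difference -0.49, SE 0.21, adjusted p = 1).

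**Figure D4:**
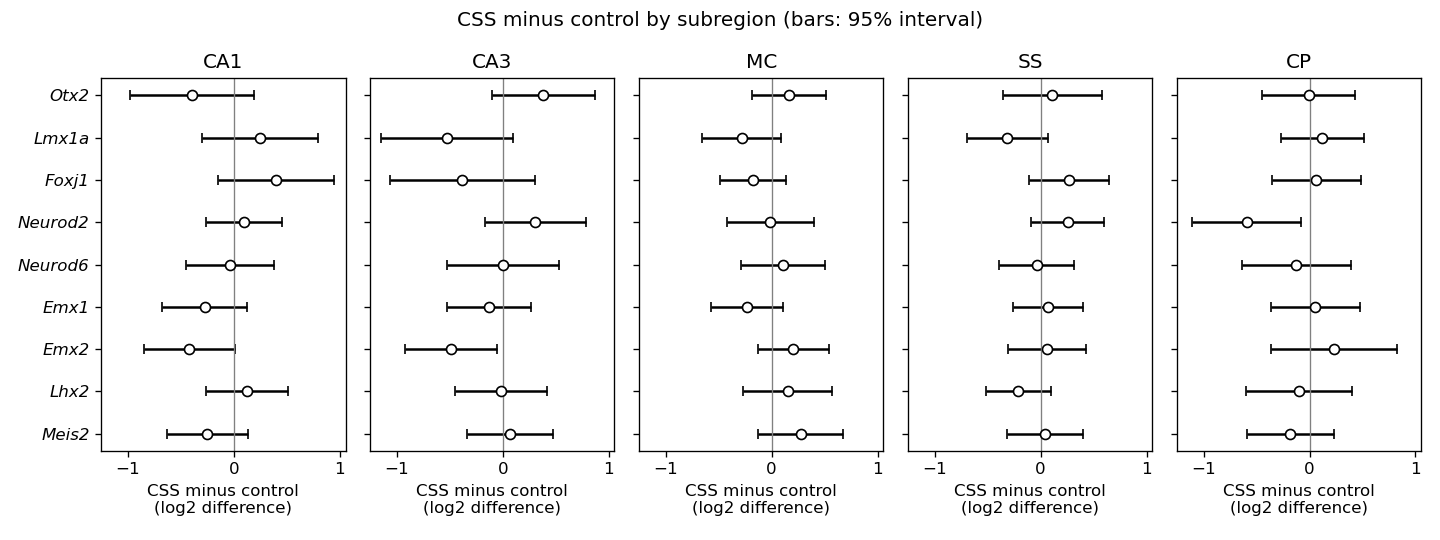
CSS minus control (log2, bars 95% interval) of each factor in the 5 subregions. Most intervals include 0; Neurod2 in CP (-0.59) and Emx2 in CA3 (-0.49) do not, and neither passed the adjusted test.

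Whether regional and p16 differences themselves differed between CSS and control mice, and the p16 difference between CP and the rest, was tested directly. In 36 tests of 4 such terms by 9 factors 0 were called with limma, with 0% of all genes called in each of the 4, and 4 had an unadjusted p under 0.05: the Neurod2 and Lhx2 terms for p16 in CP given above, and 2 terms for stress. CP minus the other subregions for Neurod2 differed by -0.77 between CSS and control mice (SE 0.24, adjusted p = 1) and CA3 minus CA1 for Otx2 by 0.72 (SE 0.28, adjusted p = 0.975).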

How the data were processed

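GeoMx values of 90 AOIs from 10 mice were used. The deposited numbers are a signal, which the authors put on 1 median per AOI, as the numbers show; reads were placed on mm10, per the submitters' processing notes, with tools not named there. At least 99.984% of values of an AOI were whole counts within 0.01 once divided by the AOI's factor, and 22.7% of values did not exceed the negative probe. All tests used log2(signal + 1), AOIs averaged per mouse and condition, and limma 3.58.1 in R 4.3.3 (lmFit, eBayes with trend, 2-sided), with Benjamini-Hochberg adjustment over 19962 genes. A fold on this scale understates changes of low genes. Pairing came from the mouse number; the median correlation between deviations of the p16 high and low AOI of a pair was 0.11, with 21 of 41 pairs over 0.1. For CSS against control, values were centred within subregion and p16 label. Alternatives were a pseudocount of 10, quantile and 75th percentile scaling, negative probe subtraction, a filter on low genes, edgeR 4.0.16 on recovered counts, other treatments of the mouse block, and leaving out each mouse, and for CSS no centring or depth as a covariate. The p16 comparison used complete pairs. The members, 6 related gene lists, 13 marker lists and tests were chosen with earlier results of these data known. Up to 4 genes of smallest p were named per list and 3 most alike genes per member; some of these are not reported here. Code was checked on simulated data. All 9 members were tested in the main setting; the filter on low genes dropped Emx2.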

Additional observations from a re-analysis of the deposited data

Results flagged for a closer look

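In 6 of 45 groups of member and subregion, 1 mouse lay apart: its distance to the nearest other mouse was large for the group's range; chance gives about 1 in 20. Mouse 1175 was lowest for Otx2 in CP, at 177 against 269 to 377 in the other 8 mice, and for Lhx2 in CA3, at 51.4 against 82.9 to 131. Lmx1a accounted for 3 of the 6, near background: mouse 1182 was lowest in CA1 at 7.68 (others 12.8 to 17.2), mouse 1170 lowest in CA3 at 2.68 (others 16.4 to 24.3), and mouse 1151 highest in SS at 29.8 (others 13.5 to 21.0). Mouse 1163 was lowest for Foxj1 in CA3, at 2.45 against 13.2 to 29.5. That value is a count of 1 in the only CA3 AOI of the mouse, and Foxj1 in CA3 was near background too (1.36 times the negative probe). None of 36 tests of a difference between groups of effects passed.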

How the results depend on the processing

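Of the 9 members, CP against hippocampus and cortex called 9 in the main setting and 8 to 9 in 18 alternatives, and CA3 against CA1 called 2 under each mouse left out. The p16 comparison in hippocampus and cortex called 1 member, Meis2, but 0 with quantile normalization, 75th percentile scaling, no replicate block, a random mouse block on single AOIs, or all AOIs including those without a partner, and 0 to 1 over mice left out. Without the block Meis2 differed by 0.39 with a limma adjusted p of 0.886, and with the random block by 0.38 (adjusted p = 0.0954). CA1 against SS called 5, and 3 to 6 over mice left out (3 without mouse 1152); MC against SS called 0, and 1 with edgeR. Directions turned for CA1 minus SS with quantile normalization (Lhx2 -0.287, Meis2 -0.0228) and 75th percentile scaling (Emx2 -0.0448, Lhx2 -0.13, Meis2 -0.0756), for CA1 minus MC with 75th percentile scaling (Emx1 -0.11) and with the negative probe subtracted (Otx2 0.0546), and for hippocampus minus cortex with 75th percentile scaling (Emx1 -0.14, Emx2 -0.0214) and quantile normalization (Emx1 -0.0659). Under 75th percentile scaling the median of all genes moved to -0.37 for hippocampus minus cortex, -0.43 for CA1 minus SS and -0.46 for CA1 minus MC. Relative to that median these members were at 0.23 to 0.38, but dividing an AOI by 1 factor hardly changes such relative values. The cause of the turns was not tested. All genes called ran from 5764 to 16200 for hippocampus against cortex (main 10194), from 4796 to 15279 for CA1 against MC (main 9494), from 4838 to 14933 for CA1 against SS (main 8601), from 3358 to 11503 for CA3 against MC (main 6337), from 3543 to 10357 for CA3 against SS (main 6113), from 0 to 268 for p16 in hippocampus and cortex (main 77), from 0 to 141 for p16 in CA1 (main 18) and from 0 to 538 for p16 in CA3 (main 0; 538 without mouse 1152). CA3 comparisons without the CA3 AOIs of mouse 1175 kept their member counts. Signal over background limits Otx2, Lmx1a and Foxj1 outside CP and Neurod2, Neurod6 and Emx2 within it. Emx2 was also low in MC and SS, at 1.33 and 1.21 times the negative probe. Emx1, Lhx2 and Meis2 in CP and Meis2 in CA3 stood little higher, at 1.61 to 1.66 times.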
